A study of Camellia sinensis with 12 samples.

Results

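The genes described here are annotated tea genes whose leaf RNA was high in Kucha-11 (K11) and at least 2 units lower on the log2(FPKM + 1) scale in each of 3 other genotypes. They were chosen by their measured levels. The K11 mean of log2(FPKM + 1) had to exceed the highest of the other 3 genotype means by at least 2, a difference termed the margin, and the 3 K11 libraries had to exceed all 9 others. Of the 33932 annotated genes, 115 (0.339%) met both conditions. TEA013425.1 and TEA025742.1, named because the count is small, are listed with the same FPKM in all 12 libraries, so the 115 genes hold 114 distinct sets of values. These 2 are not separate measurements. FPKM is the number of sequenced fragments of a gene divided by its length and by how many fragments of that library were mapped. The series profiled leaves of 2 Kucha genotypes, K11 and Kucha-6 (K6), and of 2 conventional varieties, with 3 libraries of each. The conventional varieties were Yinghong 9, here YH9, and Qingxin 1, here QX1. All plants grew untreated in 1 germplasm collection, per the labels, and the genotypes were picked for their contrast in theacrine. Each genotype stands for itself, since the labels name no second plant line of its kind and do not say whether its libraries came from separate plants. The p-values therefore rest on library-to-library spread, some or all of which could be technical.

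Theacrine is a purine alkaloid of the bitter Kucha teas, which the leaf makes from caffeine. Caffeine itself is built from xanthosine by N-methyltransferases that use S-adenosylmethionine as the methyl donor. Tea plants are outcrossing and strongly heterozygous, and named varieties are kept as clones. Levels measured in a single genotype therefore cannot be extended beyond that clone, and 2 genotypes of the same kind can differ in many genes. The cause of a level that is high in a single genotype was not tested. The deposited tables give the annotated genes by identifier only, with no name, position or length. None of the identifiers (0) matched a gene of the RefSeq table for tea, which lists 80110 genes. No function is given to any member, no purine alkaloid gene could be looked up, and no sequence is shown for the same reason. Levels are compared within a gene across libraries, and each FPKM value is per length.

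The FPKM values summed to between 609588 and 653908 per library, with K11 inside that range. YH9 had the fewest features listed at 0, from 7691 to 9061 per library, against 9685 to 10923 in the libraries of the other genotypes. The number of reads behind a value is not known, so no counting interval is given. In bulk leaf, fewer cells of a type and less RNA per cell cannot be told apart.

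The members covered a wide range of levels in K11. Their K11 means ran from 3.32 to 1471 FPKM, with a median of 18.4 and quartiles of 9.70 and 47.6 FPKM. Of the 115, 30 had a K11 mean below 10 FPKM, 72 lay between 10 and 100 FPKM, and 13 reached at least 100 FPKM. In the other genotypes the median of the member means was 1.11 FPKM in K6, 0.820 FPKM in YH9 and 0.933 FPKM in QX1. Together the members took 1.27%, 1.12% and 1.14% of the summed FPKM in K11 replicates 1, 2 and 3. They took between 0.119% and 0.149% in K6, between 0.103% and 0.110% in YH9 and between 0.0950% and 0.124% in QX1. The 5 most abundant members held 50.7% of the members' summed K11 means, so the share of the libraries rests on few genes. These levels are what the selection used and are given as a description, with no test.

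**Figure D1:**
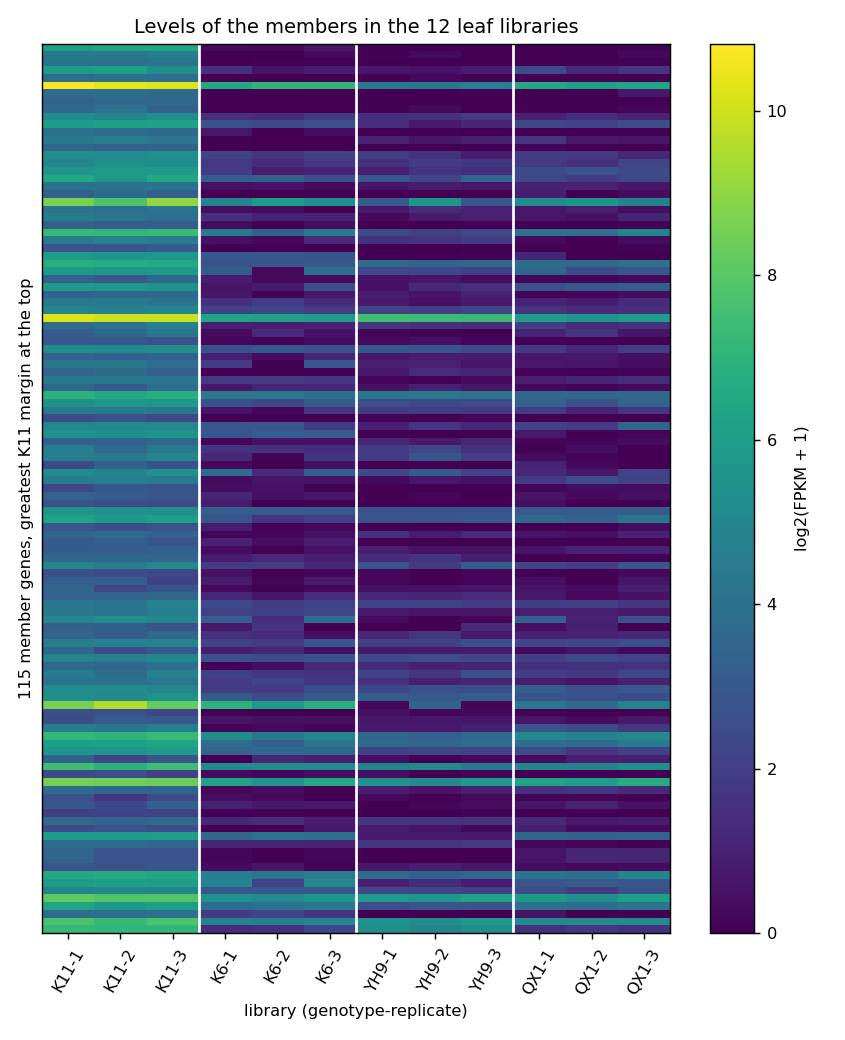
Level of each of the 115 members (rows, greatest margin at the top) in the 12 leaf libraries (columns, 3 per genotype), as log2(FPKM + 1) in colour. The 3 K11 columns are brighter than the other 9 in every row, as the choice of the genes requires, and a few rows with K11 means above 100 FPKM stand out in all libraries.

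The margin was small for most members. Its median was 2.36 with quartiles of 2.18 and 2.83, and 70 of the 115 lay between 2 and 2.5. A margin of at least 3 was reached by 24 members and one of at least 4 by 4 members. The members just inside the threshold were TEA003545.1 and TEA005879.1, with margins of 2.0023 and 2.0026 and K11 means of 143.5 and 190.9 FPKM. Just outside it lay TEA000102.1 and TEA002907.1, with margins of 1.9991 and 1.9972 and K11 means of 5.15 and 4.27 FPKM. The threshold thus cuts through a continuous range, as the plot of K11 level against the next highest genotype shows.

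**Figure D2:**
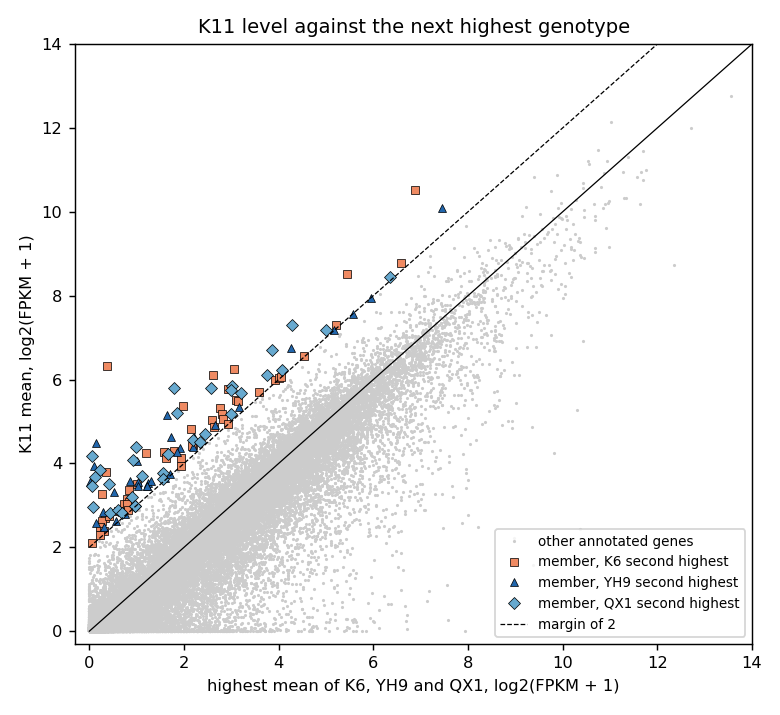
K11 mean (vertical) against the highest of the K6, YH9 and QX1 means (horizontal), both as log2(FPKM + 1), for each annotated gene (grey points) and the 115 members (symbols by the genotype that came second). The members lie on or above the dashed line of a margin of 2, with 70 of them less than 2.5 above the diagonal, and K6, YH9 and QX1 each occur as the second highest.

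TEA021319.1 had the greatest margin, 5.95. It stood at 68.66, 85.58 and 85.23 FPKM in the K11 libraries. In K6 it was listed at 0.22, 0.16 and 0.56 FPKM, in YH9 at 0.03, 0 and 0 FPKM, and in QX1 at 0, 0 and 0.09 FPKM. All 9 libraries outside K11 were thus below 1 FPKM, and K6 was the highest of the 3. TEA009719.1 followed with a margin of 4.34, at 21.67, 18.47 and 24.23 FPKM in K11. Its values were 0, 0 and 0.20 FPKM in K6, 0.07, 0.26 and 0 FPKM in YH9, and 0, 0 and 0.21 FPKM in QX1. No genotype other than K11 stood apart for this gene.

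Both belong to a class of 28 members that stayed below 1 FPKM in all 9 libraries outside K11. The K11 means of this class ran from 3.32 to 79.8 FPKM with a median of 6.71 FPKM, and 10 of the 28 reached 10 FPKM. K6 was the next highest genotype in 11 of them, YH9 in 10 and QX1 in 7. No member was listed at 0 in all 9 libraries, but 10 were listed at 0 in at least 6 of them. All 3 libraries of a genotype were listed at 0 for 8 members in K6, 11 in YH9 and 8 in QX1. The values carry 2 decimals, so a listed 0 can also be a level below the rounding.

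The other 87 members reached at least 1 FPKM in some library outside K11. Their K11 means had a median of 24.9 FPKM and were 3.12 to 20.9 times the mean of the next highest genotype, with a median of 7.15 times. In 20 members another genotype had a mean of at least 10 FPKM. TEA029323.1, singled out after its values were seen as the member with the highest K11 mean, stood at 1800.34, 1382.01 and 1231.58 FPKM in K11. It stood at 92.94, 133.63 and 128.73 FPKM in K6, at 19.91, 19.76 and 26.30 FPKM in YH9, and at 90.09, 67.12 and 84.58 FPKM in QX1. The gene was thus well expressed in all genotypes, with YH9 below K6 and QX1. That K11 does not overlap the other genotypes is required by the choice of the genes.

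The K11 libraries resembled each other in most members. The highest K11 library was less than 1.5 times the lowest in 84 of the 115, and at least 2 times the lowest in 10. The SD of log2(FPKM + 1) over the 3 K11 libraries had a median of 0.181 for the members. For the 16183 annotated genes at or above the lowest member K11 mean it was 0.139. Among the 10 members with the widest differences, replicate 1 was the highest in 5, replicate 2 in 2 and replicate 3 in 3. Replicate 2 was the lowest in 6 of these 10, and replicates 1 and 3 in 2 each. The most abundant of these 10 were TEA004368.1, with its highest K11 value in replicate 2, and TEA026874.1, at 399.07, 222.11 and 536.90 FPKM in K11, with its lowest value in that replicate; both were singled out after their values were seen.

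Replicate 2 was the library most often lowest for the members in every genotype. Members with 3 equal values in a genotype were left out of these counts, 8 in K6, 11 in YH9, 8 in QX1 and 0 in K11, and ties counted as lowest. K11 replicate 2 was lowest in 41.7% of the members, against 36.5% of all tested annotated genes. K6 replicate 2 was lowest in 53.3% of the 107 members counted, against 35.5% of the annotated genes. In YH9 replicate 2 the shares were 47.1% of 104 members and 38.2%, and in QX1 replicate 2 they were 58.9% of 107 members and 34.7%. The median deviation of the members from the genotype mean on the log2 scale was -0.036 in K11 replicate 2, -0.088 in K6 replicate 2, 0.000 in YH9 replicate 2 and -0.07 in QX1 replicate 2. Over all tested annotated genes it was -0.006, 0.000, -0.006 and 0.001 in these libraries. How leaving out single libraries moves the counts of calls is given with each pair below.

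The selection was repeated without each K11 library. Without replicate 1 it held 115 genes, 103 of them members. Without replicate 2 it held 118 genes with 108 members, and without replicate 3 it held 116 genes with 109 members. The other 11 libraries chose these genes each time, so nothing is read from the left-out library being high in them as well.

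The order of the other 3 genotypes was not part of the selection. K6, the other Kucha genotype, was the second highest in 48 members (41.7%), QX1 in 34 (29.6%) and YH9 in 33 (28.7%). Among the 6518 tested annotated genes with K11 highest and a single second, K6 was second in 28.7%, QX1 in 31.1% and YH9 in 40.2%. The share of K6 was above that of all such genes also with quantile normalization (47.0% against 32.8%) and with scaling by a trimmed mean of M-values, TMM (43.5% against 31.7%). The share of YH9 was below it in both (20.0% against 31.1%, and 22.6% against 31.8%). Members were fixed in these counts. Whether the shares differ beyond chance was not tested, and many second places rest on small differences.

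Differences among K6, YH9 and QX1 were tested with limma on log2(FPKM + 1). Every annotated or unannotated feature with at least 1 FPKM in at least 3 of the 12 libraries entered, and a call needed a log2 difference of 1 or more in size with a Benjamini-Hochberg adjusted p under 0.05. All 115 members passed this filter, as their K11 libraries alone sufficed. On the other 9 libraries 69 would pass, so 46 members entered only because they are high in K11. None of the 28 members below 1 FPKM outside K11 could be called, because their levels differ by less than 1 on this scale. In all, 35 members (30.4%) were called in at least 1 of the 3 pairs, beside 29.2% of all tested annotated genes. Shares of the 115 are therefore given beside those of all tested annotated genes as a description, and nothing is read from their difference. With K11 left out of both the fit and the filter, 21 of the 69 members tested were called in K6 against YH9, 14 in K6 against QX1 and 24 in YH9 against QX1. That is 30.4%, 20.3% and 34.8% of the 69, beside 19.1%, 9.10% and 21.2% of the 22156 annotated genes tested in that fit. The 3 pairs share libraries with each other, so their calls are not independent.

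K6 was higher than YH9 in 16 members and lower in 6. That is 13.9% and 5.22% of the members, beside 7.55% higher and 11.2% lower among all tested annotated genes. With single libraries left out, 16 to 18 members were higher and 4 to 7 lower in K6. The shares of the annotated genes were then 7.25% to 7.73% higher and 10.4% to 11.8% lower. The median log2 difference was 0.05 over the members and -0.15 over all features tested. Scaling moves this balance: with quantile normalization and with TMM, the median over all features was 0.00 and -0.02 and that of the members 0.16 and 0.10. The calls were then 18 higher and 3 lower with quantile normalization, beside 9.44% higher and 8.77% lower among all tested annotated genes. With TMM they were 17 higher and 3 lower, beside 9.24% higher and 9.03% lower. The annotated genes, which lean to lower calls in K6 without scaling, were nearly balanced with either scaling. Both scalings bring the libraries to a common level by design, so nothing is read from this balance.

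TEA004368.1 had the greatest rise in K6 over YH9. It stood at 383.90, 743.99 and 295.81 FPKM in K11, at 127.96, 58.15 and 116.71 FPKM in K6, at 0.16, 9.95 and 0.14 FPKM in YH9, and at 17.80, 12.18 and 28.60 FPKM in QX1. The K6, YH9 and QX1 libraries did not overlap, but YH9 replicate 2 lay far above the other YH9 libraries. The log2 difference of K6 against YH9 was 5.31 ± 0.81 (SE; limma, adjusted p = 0.00031), and 6.39 without YH9 replicate 2. TEA013203.1 came next, at 12.40, 16.26 and 14.05 FPKM in K6 against 0.73, 0.72 and 0.63 FPKM in YH9, with a difference of 3.16 ± 0.11 (SE; limma, adjusted p = 1.8e-10). In K11 it stood at 59.41, 61.50 and 65.25 FPKM, and in QX1 at 10.24, 9.06 and 9.50 FPKM, below each K6 library.

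The greatest fall in K6 against YH9 was that of TEA003545.1. Its values were 1.59, 1.84 and 4.13 FPKM in K6 and 39.89, 27.80 and 38.79 FPKM in YH9, a log2 difference of -3.43 ± 0.21 (SE; limma, adjusted p = 3.25e-08). In K11 it stood at 148.71, 143.40 and 138.39 FPKM and in QX1 at 1.75, 2.28 and 1.84 FPKM, so YH9 was intermediate and K6 and QX1 were low. TEA032493.1, the second most abundant member, had 1266.04, 1004.79 and 995.42 FPKM in K11. It had 80.55, 74.16 and 62.48 FPKM in K6 and 183.94, 176.26 and 166.52 FPKM in YH9. The difference of K6 against YH9 was -1.27 ± 0.14 (SE; limma, adjusted p = 4.3e-06), and QX1, at 63.33, 47.51 and 66.17 FPKM, overlapped K6.

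**Figure D3:**
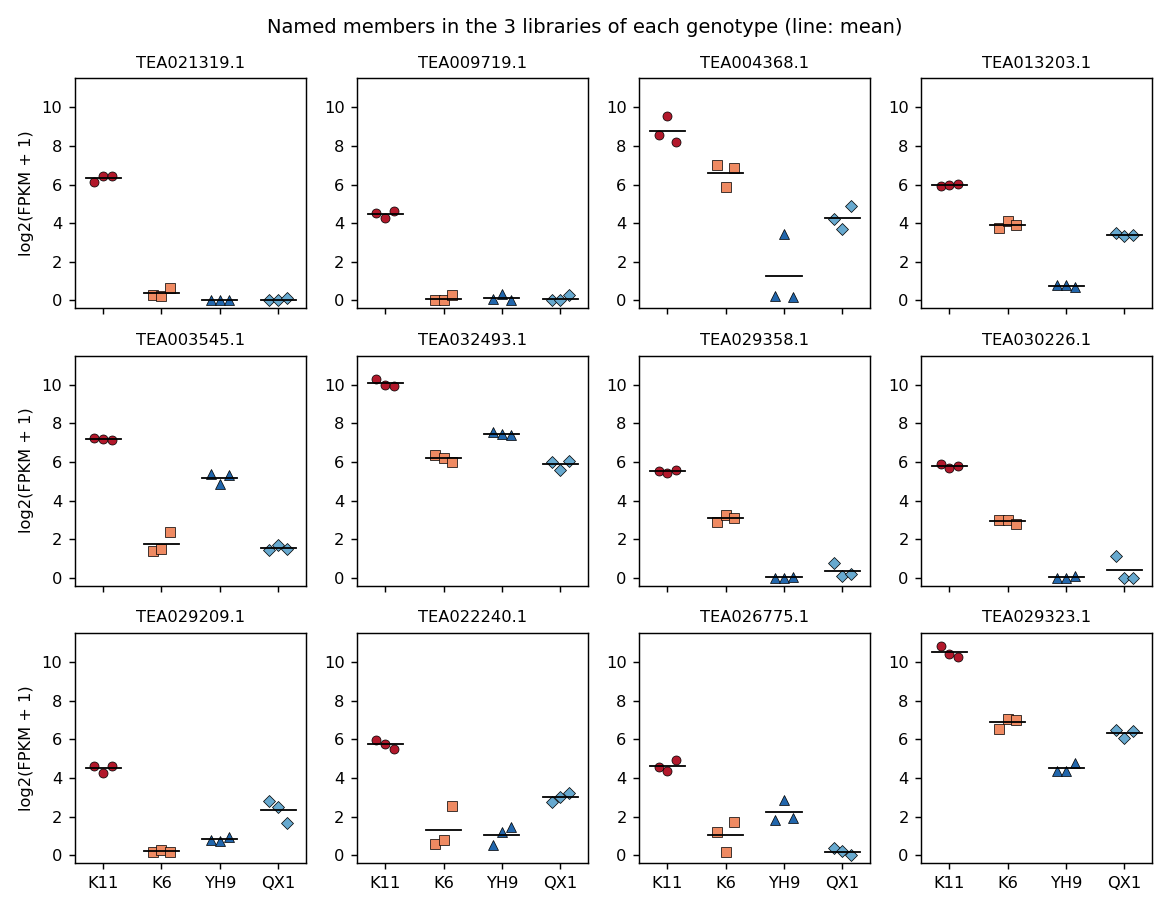
Levels as log2(FPKM + 1) (vertical) of 12 named members in the 3 libraries of each genotype (points), with the genotype mean as a line. K11 lies highest in each panel, as the choice of the genes requires. The order of K6, YH9 and QX1 changes from gene to gene, and YH9 replicate 2 (9.95 FPKM) stands apart in TEA004368.1.

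Fewer members were called between K6 and QX1 (15) than between K6 and YH9 (22) or between YH9 and QX1 (24). The same held for all tested annotated genes, of which 8.96%, 18.8% and 20.7% were called in these pairs. K6 was higher in 9 members (7.83%) and lower in 6 (5.22%), beside 4.43% higher and 4.53% lower among all tested annotated genes. The balance of these calls rested on single libraries. Without QX1 replicate 2, 6 members were higher and 10 lower in K6, without K6 replicate 3 they were 10 and 10, and without QX1 replicate 1 they were 9 and 9. Without K6 replicate 2 they were 12 higher and 6 lower. Of all tested annotated genes, 4.31% were higher and 4.08% lower without QX1 replicate 2, and 4.36% and 4.93% without K6 replicate 3. These shares were 4.75% and 4.09% without QX1 replicate 1, and 4.18% and 4.22% without K6 replicate 2. The median log2 difference was 0.09 over the members and 0.01 over all features tested.

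On the log2(FPKM + 1) scale, TEA029358.1 had the greatest rise of K6 over QX1. It stood at 45.55, 42.41 and 46.85 FPKM in K11, at 6.54, 8.60 and 7.62 FPKM in K6, at 0, 0 and 0.04 FPKM in YH9, and at 0.69, 0.06 and 0.14 FPKM in QX1. The log2 difference of K6 against QX1 was 2.75 ± 0.17 (SE; limma, adjusted p = 9.65e-08). TEA030226.1 was alike, at 57.94, 50.58 and 53.70 FPKM in K11 and at 6.94, 6.94 and 5.97 FPKM in K6. It was listed at 0, 0 and 0.05 FPKM in YH9 and at 1.20, 0 and 0 FPKM in QX1, with a difference of K6 against QX1 of 2.55 ± 0.24 (SE; limma, adjusted p = 4.08e-06). Over the alternatives run, the difference reached at most 4.61 for TEA029358.1 and 4.83 for TEA030226.1, so their order depends on the setting. In both genes the K6 libraries lay above every library of the conventional varieties. They lay below all of K11, as the choice of the genes requires.

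The greatest fall of K6 against QX1 was that of TEA029209.1. It stood at 0.12, 0.22 and 0.13 FPKM in K6 and at 5.90, 4.72 and 2.23 FPKM in QX1, a log2 difference of -2.12 ± 0.23 (SE; limma, adjusted p = 1.38e-05). In K11 it stood at 23.91, 18.07 and 23.41 FPKM and in YH9 at 0.73, 0.66 and 0.94 FPKM. TEA022240.1 had 0.49, 0.70 and 4.89 FPKM in K6 and 5.68, 7.15 and 8.48 FPKM in QX1, a difference of -1.70 ± 0.42 (SE; limma, adjusted p = 0.00714). K6 replicate 3 lay near the QX1 libraries, and the difference was -2.33 without it. In K11 this gene stood at 62.10, 53.26 and 44.77 FPKM and in YH9 at 0.44, 1.28 and 1.72 FPKM.

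Between the conventional varieties, 24 members (20.9%) were called, beside 20.7% of all tested annotated genes. YH9 was higher than QX1 in 8 members (6.96%) and lower in 16 (13.9%), beside 12.5% higher and 8.22% lower among all tested annotated genes. With single libraries left out, 7 to 10 members were higher and 14 to 18 lower in YH9. The shares of the annotated genes were then 11.7% to 12.9% higher and 7.73% to 8.47% lower. The median log2 difference was -0.06 over the members and 0.17 over all features tested. With quantile normalization these medians were -0.11 and 0.00. The calls were then 7 higher and 20 lower in YH9, beside 9.74% and 10.3% of all tested annotated genes. TEA003545.1 had the greatest rise of YH9 over QX1, 3.61 ± 0.21 (SE; limma, adjusted p = 1.84e-08). TEA026775.1 came next, at 2.60, 6.35 and 2.86 FPKM in YH9 against 0.28, 0.15 and 0 FPKM in QX1. Its difference was 2.04 ± 0.36 (SE; limma, adjusted p = 0.000292). In K11 it stood at 22.97, 19.45 and 29.94 FPKM and in K6 at 1.32, 0.12 and 2.32 FPKM.

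The greatest falls of YH9 against QX1 were those of TEA004368.1, -2.99 ± 0.81 (SE; limma, adjusted p = 0.00955), and TEA013203.1, -2.65 ± 0.11 (SE; limma, adjusted p = 5.57e-10). For TEA004368.1 the difference was -4.08 without YH9 replicate 2. Both genes also had the greatest rises of K6 over YH9, a comparison that uses the same YH9 libraries. Their FPKM values, given above, were lower in YH9 than in every library of K6 and QX1.

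**Figure D4:**
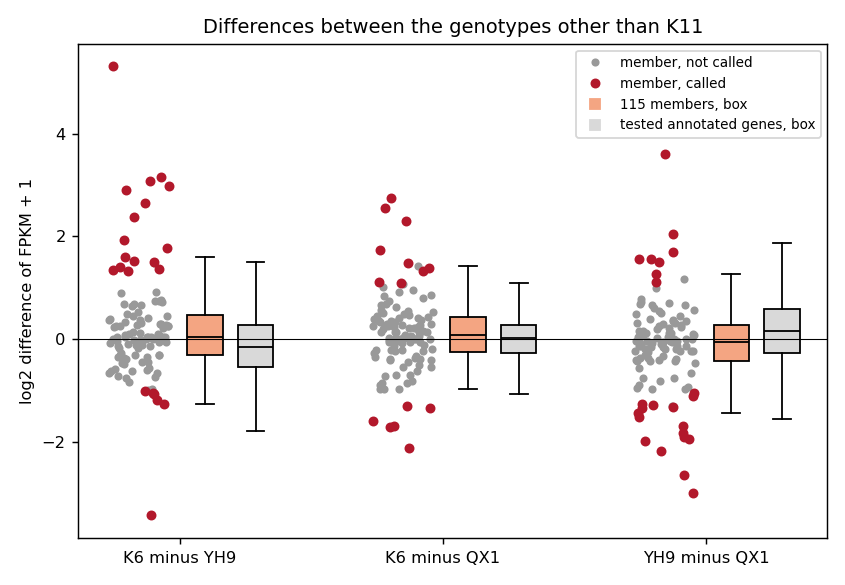
Log2 difference of FPKM + 1 (vertical) for each member in K6 minus YH9, K6 minus QX1 and YH9 minus QX1 (points, with called members in red), beside boxes of the 115 members and of all 22782 tested annotated genes (median, quartiles and whiskers to 1.5 times the quartile range, points beyond them left out of the boxes). Members spread from -3.43 to 5.31, from -2.12 to 2.75 and from -2.99 to 3.61, and most lie near 0 in each pair.

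A few members were higher in K6 than in both conventional varieties, though below K11 as the choice of the genes requires. Against both YH9 and QX1, comparisons that share the K6 libraries, 6 members were called higher in K6, which is 5.22% of the members, beside 1.75% of all tested annotated genes. Among the other patterns, YH9 was lower than both K6 and QX1 in 10 members (8.70%, beside 4.31%) and higher than both in 4 (3.48%, beside 7.67%). QX1 was higher than both K6 and YH9 in 4 members (3.48%, beside 2.34%) and lower than both in 2 (1.74%, beside 1.91%), and K6 was lower than both in 0 (beside 1.31%). These shares carry the same limit as the single pairs. The 6 members called higher in K6 than in YH9 and QX1 were TEA004368.1, TEA029358.1, TEA030226.1, TEA000345.1, TEA014558.1 and TEA030254.1. Their means ran from 14.3 to 474.6 FPKM in K11, from 2.87 to 100.9 FPKM in K6, from 0 to 3.54 FPKM in YH9 and from 0.167 to 19.5 FPKM in QX1. TEA030254.1 stood at 13.13, 14.15 and 15.74 FPKM in K11 and at 2.70, 3.76 and 2.16 FPKM in K6. It was listed at 0 in all 3 YH9 libraries and at 0.50, 0 and 0 FPKM in QX1. For TEA004368.1 the difference of K6 against QX1 was 2.31 ± 0.81 (SE; limma, adjusted p = 0.0495), a value close to the threshold. The call was lost when any K11 library, any QX1 library, K6 replicate 1 or K6 replicate 3 was left out (limma, adjusted p = 0.0609 to 0.143) and with a replicate block (limma, adjusted p = 0.0734).

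A single pair of members, TEA012730.1 and TEA012731.1, carried consecutive numbers, named here because the count is small. Whether this count differs from what chance would give was not tested. TEA012730.1 stood at 6.47, 4.92 and 5.75 FPKM in K11 and at 0.81, 0.08 and 0.22 FPKM in K6. TEA012731.1 stood at 7.29, 8.68 and 5.82 FPKM in K11 and at 1.01, 0.28 and 0.80 FPKM in K6. Both were listed at 0 in all YH9 libraries, and in QX1 at 0.03, 0 and 0.30 FPKM for the first gene and at 0 throughout for the second. The tables give no position for annotated genes, so whether the genes lie side by side is not known from them.

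The same conditions with another genotype in the place of K11 gave 42 annotated genes for K6, 219 for YH9 and 95 for QX1. In K11, 24.3% of the members were below 1 FPKM in all libraries of the other genotypes, against 50.0% in the K6 set, 20.1% in the YH9 set and 35.8% in the QX1 set. The median level in the genotype that defined the set was 18.4 FPKM for K11, 9.88 FPKM for K6, 26.6 FPKM for YH9 and 15.0 FPKM for QX1. The greatest margin was 5.95 for K11, 4.32 for K6, 5.45 for YH9 and 7.74 for QX1. Among the 8772 unannotated loci, 125 (1.42%) were high in K11 by the same conditions, and 62.4% of them were below 1 FPKM elsewhere. The other genotypes gave 69 (0.787%) for K6, 175 (1.99%) for YH9 and 86 (0.98%) for QX1. Of these, 68.1%, 63.4% and 72.1% were below 1 FPKM elsewhere. The sets were built by the same rule from the same libraries, and their sizes are a description with no test.

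**Figure D5:**
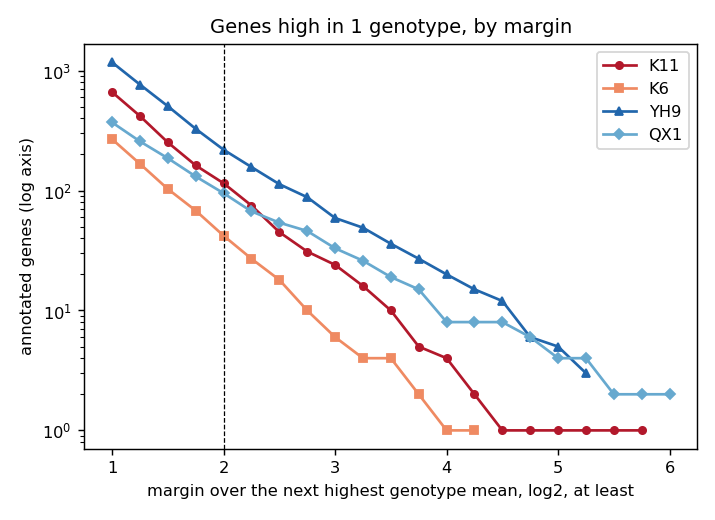
Number of annotated genes (vertical, log axis) whose 3 libraries of 1 genotype exceed all 9 others and whose margin over the next highest genotype mean is at least the value on the horizontal axis (log2 scale), for each genotype. At a margin of 2 (dashed line) the counts are 115 for K11, 42 for K6, 219 for YH9 and 95 for QX1, and at a margin of 4 they are 4, 1, 20 and 8.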

How the data were processed

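RNA of 12 leaf libraries was sequenced, 3 from each of 4 genotypes, and libraries were grouped by their titles. The authors deposited 1 table per library with FPKM values to 2 decimals, per the file headers. Bowtie2 2.2.8 and TopHat2 2.1.1 were used, per the submitters' processing notes. Not given in the sources used here are the software that produced the FPKM, the build of the genome and any filters. The labels' extraction text speaks of retinas, while the tissue label is leaf, which was followed. FPKM are not counts, so log2(FPKM + 1) was tested with limma 3.58.1 (R 4.3.3), fitting a mean per genotype over all 12 libraries and a trended, robust prior. The filter asked for 1 FPKM or more in 3 or more libraries and left 29364 features. Fold changes on this scale understate those of low genes. The fit was first tested on simulated data. Replicates of a genotype shared at most 1.32% of their values above 0, so none was a copy. Members and gene lists were chosen with earlier results of these data known. The gene lists could not be matched to identifiers. Named genes are the 2 with the greatest margin, in each pair the 2 called members with the greatest rise and the 2 with the greatest fall, and those nearest the threshold. Others are said to be chosen after their values were seen. Alternatives covered the pseudocount, filter, scaling, a replicate block, a fit without K11, the margin, and leaving out each library.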

Additional observations from a re-analysis of the deposited data

How the results depend on the processing

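The number of genes chosen depended on the scale and the threshold. It was 345 with a pseudocount of 0.1, 662 with a margin of 1 and 24 with a margin of 3. All 115 members were among the first 2 of these sets. With a pseudocount of 0.1, members called were 43 in K6 against YH9, 36 in K6 against QX1 and 43 in YH9 against QX1, in place of 22, 15 and 24. Of all tested annotated genes, 25.6%, 14.0% and 27.4% were then called, in place of 18.8%, 8.96% and 20.7%. Members below the limit in all 9 libraries outside K11 were 16 at 0.5 FPKM and 47 at 2 FPKM, in place of 28. A pseudocount of 0.1 weighs low values more, and the other settings move a threshold. The cause of the shifts in members and calls was not tested. With a replicate block, the calls were 22, 14 and 24, beside 18.7%, 8.95% and 20.7% of all tested annotated genes. The labels do not say whether the replicate numbers pair samples. Deviations from the genotype mean were correlated between same-numbered libraries, and none (0) of 18 correlations exceeded 0.1 (range -0.103 to 0.056). These are not correlations of the levels themselves. Low correlations cannot settle this, and replicate 2 was the library most often lowest for the members in every genotype. Whether the numbers mark a shared day or batch was not tested. Calls of K6 against QX1 were 6 higher and 10 lower without QX1 replicate 2, in place of 9 and 6. Without K6 replicate 3 they were 10 and 10. The shares of all tested annotated genes in these settings are given above. The cause of the changed balance was not tested. The difference of TEA004368.1 in K6 against QX1 lost its call in 13 of 19 alternatives. The other named differences between genotypes kept direction and call in every alternative run. The second-place counts under other scalings were added after seeing the data. Depth is not known from FPKM, which limits what can be said of members listed near 0.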
